A study of Mus musculus with 30 samples.

Results

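The carrier proteins of the mitochondrial inner membrane were followed through heart development as 50 protein-coding mouse genes, out of 48820 genes in the count table. They were chosen by name, as every gene whose symbol starts with Slc25a together with the uncoupling proteins Ucp1, Ucp2 and Ucp3. The rule itself uses no measured value, but it was set with earlier results of these data known. All 50 were found in the table, and 47 had enough counts to be tested. The other 3 were Slc25a54 with 0 counts in all 30 libraries, Slc25a41 with 9 counts in all and Slc25a48 with 25 counts in all.

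The inner mitochondrial membrane is closed to most solutes, and the SLC25 family of carriers moves nucleotides, phosphate, carboxylates, amino acids, acylcarnitines, metal ions and cofactors across it. The family shares a common fold, and most members work as exchangers. In the beating heart the ADP/ATP carrier and the phosphate carrier feed ATP synthase and export its product, the carnitine-acylcarnitine carrier admits fatty acids for oxidation, and the malate-aspartate shuttle brings in reducing equivalents from glycolysis. The uncoupling proteins belong to the same family. Ucp1 lets protons leak back in brown fat to make heat, while the physiological roles of Ucp2 and Ucp3 are less settled.

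The hearts came from wild-type, untreated mice at 10 ages with 3 libraries each. The ages before birth were embryonic days 10.5, 12.5, 14.5, 16.5 and 18.5 (E10.5 to E18.5). The ages after birth were postnatal day 1 (P1) and weeks 1, 2, 4 and 8 (1W to 8W). The labels name neither strain nor sex. Whether each library was made from its own animal or from a pool is not stated in them, so that a p-value here covers only the spread among these libraries, which may be technical.

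Library totals lay between 23164941 and 50519457 counts, and the share of mitochondrially encoded transcripts ran from 2.73% to 19.2%. All 10 listed cardiomyocyte markers were present at every age, and their summed level ran from 22637 to 41592 CPM (reads of a gene relative to the library total) at E10.5 and from 226452 to 245831 CPM at 8W. E10.5 replicate 2 stood apart by Rn7sk, a small nuclear RNA, at 32231 CPM without scaling against at most 6113 CPM in the other E10.5 libraries. All 3 libraries of P1 held Y-chromosome transcripts and no Xist, while each library of 4W and 8W held Xist and no Y-chromosome transcripts. Both kinds were found together in all libraries of E10.5 and in 2 each of E12.5 and E14.5, and at E18.5 there were 2 libraries with Xist alone and 1 with Y transcripts alone. Sex and age thus cannot be told apart between P1 and 8W, the makeup also differs between E18.5 and P1, and 4 of the 50 genes (Slc25a5, Slc25a14, Slc25a43 and Slc25a53) lie on the X chromosome.

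The promoters of the 4 carriers with the largest called rises at birth are shown first, since the results below turn on that step. The RefSeq table of GRCm38.p6 held a promoter for 39 of the 50 genes. Only bases before the gene start are printed, 5′ to 3′ on the gene's strand, and capitals mark AGGTCA or its reverse complement, the half-site letters that nuclear receptors of the PPAR and ERR families can bind. The windows are chr7:100472741-100472989 on the plus strand for Ucp3, chr4:141623835-141624084 on the minus strand for Slc25a34, chr7:100493108-100493336 on the plus strand for Ucp2 and chr9:108661886-108662087 on the plus strand for Slc25a20.

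Ucp3: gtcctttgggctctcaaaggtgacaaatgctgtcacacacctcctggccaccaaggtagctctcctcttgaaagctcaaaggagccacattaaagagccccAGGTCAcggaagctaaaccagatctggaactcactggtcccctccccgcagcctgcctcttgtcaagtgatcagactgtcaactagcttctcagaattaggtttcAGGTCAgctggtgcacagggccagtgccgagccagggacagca

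Slc25a34: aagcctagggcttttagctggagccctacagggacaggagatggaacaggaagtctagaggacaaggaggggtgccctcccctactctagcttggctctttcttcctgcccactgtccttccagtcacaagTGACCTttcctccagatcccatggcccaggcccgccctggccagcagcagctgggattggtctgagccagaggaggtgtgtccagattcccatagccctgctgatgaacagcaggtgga

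Ucp2: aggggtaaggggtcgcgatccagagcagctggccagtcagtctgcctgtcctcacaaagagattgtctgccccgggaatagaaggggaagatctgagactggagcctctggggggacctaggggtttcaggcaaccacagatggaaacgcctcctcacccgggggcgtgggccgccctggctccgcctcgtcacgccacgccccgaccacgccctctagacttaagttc

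Slc25a20: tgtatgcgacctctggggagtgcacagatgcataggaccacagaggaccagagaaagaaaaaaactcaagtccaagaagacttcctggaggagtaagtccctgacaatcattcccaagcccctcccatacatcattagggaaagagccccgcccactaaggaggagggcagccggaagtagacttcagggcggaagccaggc

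The Ucp3 window held the half-site letters at 149 and at 44 bases before the RefSeq start, and the Slc25a34 window held them once, on the reverse strand. The windows of Ucp2 and Slc25a20 held none. Over the 250 bases before the start and on both strands, AGGTCA was found in 6 of the 39 carrier promoters (Slc25a34, Slc25a39, Slc25a45, Slc25a47, Ucp1 and Ucp3) and in 14% of 32851 promoters of all genes. CACGTG, the E-box letters, was found in 6 carrier promoters and in 6.02% of all. GGGCGG, the GC box letters, was found in 25 carrier promoters and in 32.7% of all, and the carrier windows had a median GC content of 58.8% against 52.4%. The motifs were chosen after the expression values had been seen, and a match is only a run of letters.

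Most carrier transcripts changed with age. Between P1 and 8W, 24 of the 47 tested rose and 12 fell, against 31.8% and 35.1% of all genes. That balance turned with library size alone. A gene is called where its edgeR test passed an adjusted p of 0.05, and changes are log2 of the later over the earlier age ± SE, with CPM on library sizes corrected by TMM, the trimmed mean of M values. Over the 10 ages, 45 of the 47 tested carriers were called, against 93.6% of all 19280 genes tested, a share close to that background. The 2 exceptions were Slc25a31, the ADP/ATP carrier of the germ line, and Slc25a2, an ornithine carrier, each under 1 CPM in every library. Of the 45, 21 had their highest mean at 8W, 5 each at P1 and 4W, 4 at E10.5, and none at E14.5, and 15 had their lowest mean at E10.5. These ages rest on TMM-scaled means. They were not counted over all genes, so they do not show a trait of the carriers.

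**Figure D1:**
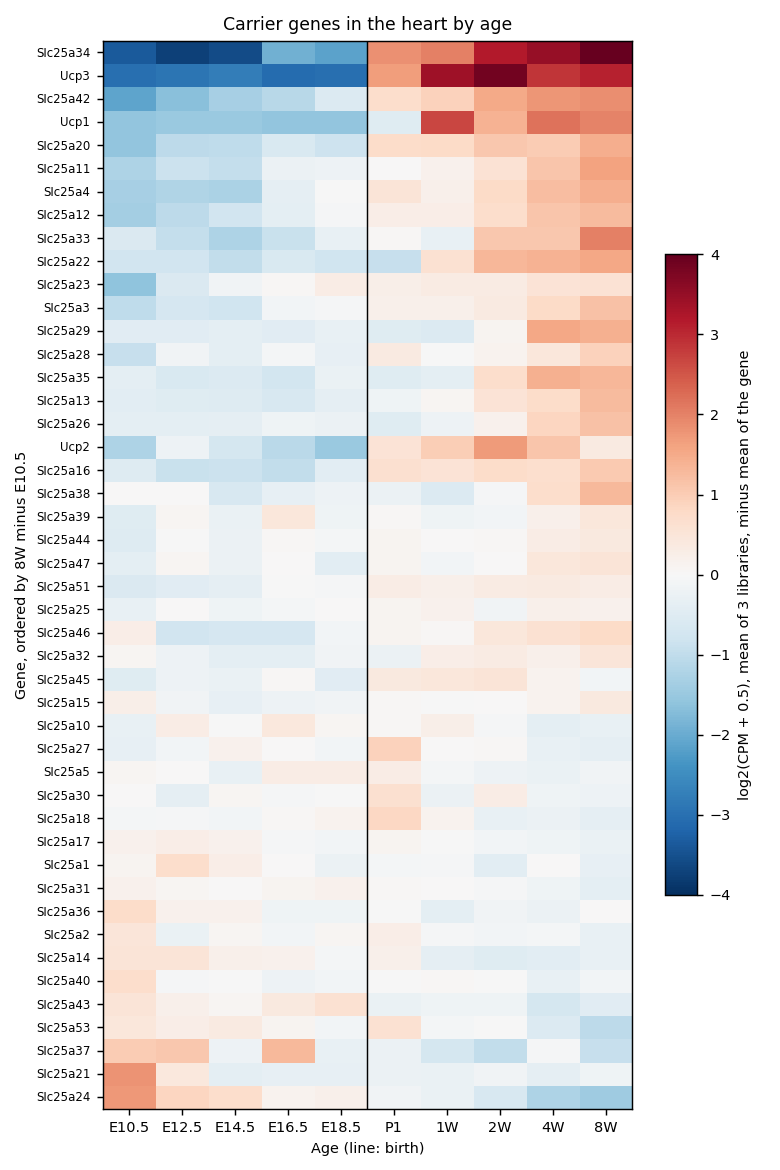
Mean level of 46 of the 47 tested carriers at the 10 ages, as log2(CPM + 0.5) minus the gene's own mean, with genes ordered by 8W minus E10.5 and a line at birth. Slc25a34 and Ucp3 at the top step up at birth, and Slc25a24 at the bottom is highest at E10.5.

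The summed level of the family went from 2059 ± 106 CPM at E10.5 to 3189 ± 64.7 at E18.5, 4219 ± 86.0 at P1 and 7570 ± 114 at 8W (SD, n = 3). Without TMM factors the sums were 2605 CPM at E10.5, 4428 at P1 and 4649 at 8W. In bulk tissue, a lower share of a cell type and less RNA per cell of that type cannot be told apart.

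On the scale of CPM per kilobase of exon, 12 genes made up 90% of the family's level at E10.5, 13 at E12.5 and E14.5, 10 at E16.5 and 8 at E18.5. After birth it took 9 genes at P1, 11 at 1W, 10 at 2W and 8 at 4W and 8W, so the number did not move steadily with age. The share of Slc25a4 in the family's level per kilobase went from 31.8% to 56.8% and that of Slc25a5 from 26.0% to 5.86%. At 8W the order of levels per kilobase was Slc25a4 (1442), Slc25a3 (273), Slc25a11 (237), Slc25a5 (149) and Slc25a34 (76.5), all in CPM per kilobase. At E10.5 it was Slc25a4 (210), Slc25a5 (173), Slc25a3 (59.8) and Slc25a11 (32.9).

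The ADP/ATP carriers export ATP from the matrix in exchange for ADP. Slc25a4 (chr8:46206797-46211284, minus strand, GRCm38) encodes the form that prevails in heart and skeletal muscle. It stood at 454, 538 and 494 CPM at E10.5 and at 465, 545 and 541 CPM at E14.5. It was at 977, 984 and 928 CPM at E16.5, at 1222, 1205 and 1204 CPM at E18.5 and at 1745, 1808 and 1725 CPM at P1. It dipped to 1368, 1502 and 1377 CPM at 1W before it reached 3281, 3392 and 3508 CPM at 8W. The early levels overlapped up to E14.5, and every library from E16.5 on was above all of those. The change was 1.29 ± 0.08 over gestation, 0.54 ± 0.08 at birth and 0.95 ± 0.08 from P1 to 8W, all called (edgeR, adjusted p 4.5e-15, 3.0e-06 and 6.9e-12), and the dip from P1 to 1W was called at -0.31 ± 0.08.

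Slc25a5, on the X chromosome, encodes the ADP/ATP carrier found in most dividing cells, and its transcript did not follow Slc25a4. It was at 251, 311 and 290 CPM at E10.5, at 331, 327 and 345 CPM at P1 and at 251, 229 and 254 CPM at 8W. It fell from P1 to 8W by 0.45 ± 0.10 (adjusted p 2.2e-04, edgeR), without overlap between those ages. Its rise over gestation of 0.23 ± 0.10 had an adjusted p of 0.048 and was lost in 6 of the other settings and without many of the single libraries, with an edgeR adjusted p of 0.24 without E10.5 replicate 1. Reads of the processed pseudogene Slc25a5-ps made up at most 0.0257% of the counts of both.

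The phosphate carrier Slc25a3, which supplies phosphate to ATP synthase, was at 305, 352 and 339 CPM at E10.5 and at 1511, 1527 and 1501 CPM at 8W. Its levels were 668, 632 and 634 CPM at E18.5 and 746, 792 and 768 CPM at P1. The change was 0.96 ± 0.08 over gestation and 0.98 ± 0.08 from P1 to 8W, with groups that did not overlap, and 0.25 ± 0.08 at birth (adjusted p 8.6e-03, edgeR), a call lost with library size alone.

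The calcium-regulated ATP-Mg/phosphate carriers adjust the nucleotide content of the matrix, and the pair Slc25a23 and Slc25a24 moved in opposite directions before birth. Slc25a23 was at 10.4, 8.15 and 9.64 CPM at E10.5 and at 36.9, 37.6 and 35.1 CPM at E18.5, the largest rise of gestation among carriers of at least 5 CPM (1.96 ± 0.10, adjusted p 3.9e-17, edgeR). Slc25a24, a form best known from dividing cells, was at 110, 91.2 and 101 CPM at E10.5 and at 35.2, 33.3 and 35.2 CPM at E18.5, the largest fall by the same limit (-1.54 ± 0.10, adjusted p 5.2e-15, edgeR). After birth Slc25a24 went from 27.1, 23.9 and 30.4 CPM at P1 to 10.3, 11.1 and 10.9 CPM at 8W (-1.33 ± 0.11). In both comparisons every later library of Slc25a24 was below every earlier one. Slc25a25, another form, stayed between 14.4 and 23.3 CPM in all libraries.

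Slc25a20, the carnitine-acylcarnitine carrier that admits long-chain fatty acids for oxidation, stepped up between E18.5 and P1. It was at 22.7, 27.8 and 24.8 CPM at E10.5 and at 45.8, 38.9 and 42.4 CPM at E18.5. It was then at 122, 130 and 129 CPM at P1 and at 213, 208 and 204 CPM at 8W. The change at birth was 1.59 ± 0.08 (adjusted p 5.6e-16, edgeR) and that over gestation 0.75 ± 0.08. From P1 to 8W it rose by 0.71 ± 0.08, and with library size alone that change was -0.060 and not called.

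The carriers of basic amino acids were low. Slc25a29, which carries arginine and lysine, was at 1.32, 1.09 and 0.931 CPM at P1 and at 4.67, 4.95 and 7.06 CPM at 8W (2.32 ± 0.26, adjusted p 2.7e-09, edgeR), with its step between 2W and 4W (1.64 ± 0.25). Slc25a15, an ornithine carrier, lay between 12.4 and 23.4 CPM in all libraries.

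Among the di- and tricarboxylate carriers, Slc25a11 alone was abundant. It exchanges malate for 2-oxoglutarate and is 1 of the carrier steps of the malate-aspartate shuttle. It was at 61.0, 84.5 and 64.0 CPM at E10.5, at 150, 143 and 135 CPM at E18.5, at 154, 180 and 161 CPM at P1 and at 498, 491 and 520 CPM at 8W. The change was 1.03 ± 0.11 over gestation and 1.61 ± 0.11 from P1 to 8W, and at birth it was 0.21 ± 0.10 and not called. Of its exon bases, 8.92% are shared with Rnf167. Slc25a21, the oxodicarboxylate carrier, was at 2.16, 1.46 and 1.80 CPM at E10.5 and at most 0.151 CPM in any library from E14.5 on. The citrate carrier Slc25a1 and the dicarboxylate carrier Slc25a10 stayed between 8.09 and 22.6 CPM.

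The aspartate/glutamate carriers are the other carrier step of the malate-aspartate shuttle. Slc25a12, the calcium-activated form of heart, muscle and brain, was at 48.7, 59.6 and 58.0 CPM at E10.5, at 146, 137 and 136 CPM at E18.5, at 173, 170 and 173 CPM at P1 and at 354, 337 and 346 CPM at 8W. Its relative Slc25a13, the main form of liver, was at 58.1, 61.1 and 65.7 CPM at E10.5, at 67.5, 60.2 and 61.6 CPM at E18.5, at 69.0, 77.9 and 73.4 CPM at P1 and at 202, 198 and 192 CPM at 8W. Slc25a12 rose through gestation (1.33 ± 0.08, adjusted p 1.1e-15, edgeR) while the change of Slc25a13 over the same span was 0.03 ± 0.09 and not called. From P1 to 8W both rose, by 1.00 ± 0.08 and by 1.43 ± 0.09.

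The glutamate carrier Slc25a22 rose in the first weeks after birth. Its change from E10.5 to E18.5 was -0.04 ± 0.12 and not called, with 1 called step before birth, from E14.5 to E16.5 (0.42 ± 0.12). It was at 6.26, 6.45 and 6.30 CPM at P1, at 17.6, 20.02 and 19.9 CPM at 1W, at 31.2, 36.3 and 28.6 CPM at 2W and at 34.6, 41.6 and 36.0 CPM at 8W. Its change from P1 to 8W, 2.56 ± 0.12 (adjusted p 2.0e-18, edgeR), was the largest called rise of that span, and 1.60 ± 0.12 of it fell between P1 and 1W. The other glutamate carrier, Slc25a18, had at most 1.33 CPM in any library.

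The coenzyme A carrier Slc25a42 rose in all 3 main spans. It was at 3.04, 2.08 and 1.75 CPM at E10.5, at 7.29, 7.25 and 8.86 CPM at E18.5, at 21.6, 20.05 and 16.3 CPM at P1 and at 40.5, 44.4 and 43.8 CPM at 8W. The changes were 1.78 ± 0.14, 1.31 ± 0.12 and 1.15 ± 0.12, with no overlap between the ages compared. Slc25a16, a carrier tied to coenzyme A supply, also stepped up at birth, from 13.98, 15.2 and 13.5 CPM at E18.5 to 29.7, 28.1 and 32.6 CPM at P1 (1.08 ± 0.08, adjusted p 4.9e-12, edgeR).

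Of the 3 carriers called lower at birth, Slc25a24 changed by -0.35 ± 0.10, a call lost without P1 replicate 2 (adjusted p 0.058, edgeR). The orphan Slc25a43, on the X chromosome, changed by -1.83 ± 0.47 and had at most 1.03 CPM in any library, and the part of sex in that change was not tested.

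The pyrimidine nucleotide carriers supply the matrix with building blocks for mitochondrial DNA and RNA. Slc25a36 fell over gestation from 147, 118 and 122.7 CPM at E10.5 to 67.7, 67.2 and 71.7 CPM at E18.5 (-0.91 ± 0.08, adjusted p 1.5e-11, edgeR). Slc25a33 rose late, from 3.43, 6.52 and 5.17 CPM at P1 to 24.4, 19.1 and 20.02 CPM at 8W (2.07 ± 0.21), and 14.9% of its exon bases are shared with Gm13068. The NAD+ carrier Slc25a51 was at 53.7, 63.4 and 63.1 CPM at E10.5 and at 112, 112 and 107 CPM at P1. It did not pass the test from P1 to 8W (0.01 ± 0.07).

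Slc25a26, which imports S-adenosylmethionine, was at 4.91, 5.16 and 5.11 CPM at P1 and at 17.2, 18.1 and 15.95 CPM at 8W (1.75 ± 0.14, adjusted p 6.6e-13, edgeR). The peroxisomal member Slc25a17 fell from P1 to 8W (-0.39 ± 0.10), and the folate carrier Slc25a32 had at most 6.98 CPM. Slc25a46, which sits in the outer membrane, fell from 67.4, 66.4 and 61.1 CPM at E10.5 to 33.0, 27.0 and 34.2 CPM at E12.5 (-1.05 ± 0.08), and was at 93.0, 88.7 and 91.8 CPM at 8W.

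**Figure D2:**
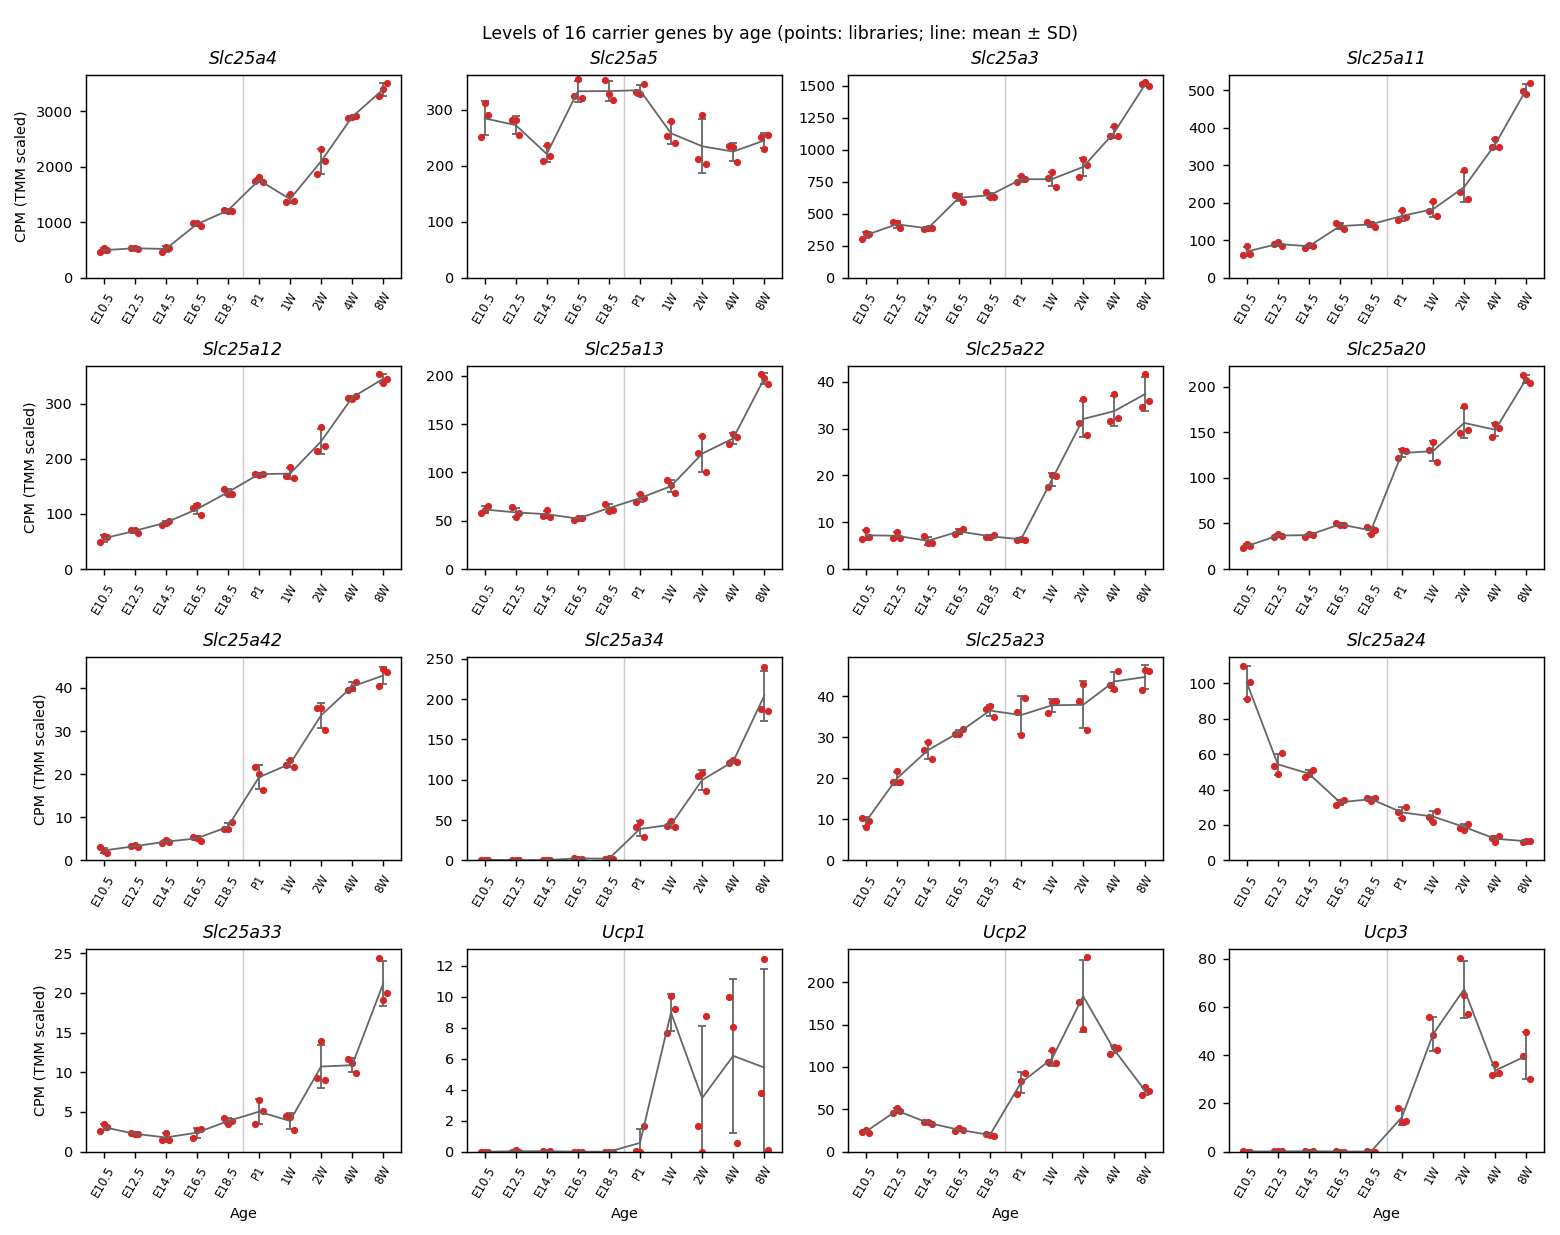
TMM-scaled CPM of 16 carriers by age on linear axes from 0, with each library as a point, the line through means, bars of 1 SD (n = 3) and a grey line at birth. Slc25a20, Slc25a34, Ucp2 and Ucp3 step up between E18.5 and P1, Slc25a22 climbs from P1 to 2W, and Slc25a24 declines from E10.5 to 8W.

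The mitoferrins import iron for heme and iron-sulfur clusters. Slc25a37, the form of red cell precursors, zigzagged. It was at 86.3, 81.5 and 86.3 CPM at E10.5, at 38.0, 37.0 and 31.3 CPM at E14.5, at 91.8, 121 and 93.4 CPM at E16.5 and at 30.2, 26.9 and 42.7 CPM at E18.5. After birth it was at 34.4, 37.2 and 32.2 CPM at P1, at 31.4, 49.7 and 38.0 CPM at 4W and at 20.7, 22.0 and 22.5 CPM at 8W. The steps of -1.31 ± 0.15, 1.53 ± 0.15 and -1.62 ± 0.15 from E12.5 to E18.5 were all called, so that the fall from E10.5 to E18.5 (-1.35 ± 0.15) joins ages between which the level had been up again.

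Alas2, the erythroid enzyme that starts heme synthesis, was called in the same direction as Slc25a37 in the 3 steps from E12.5 to E18.5 (-1.64 ± 0.34, 2.53 ± 0.35 and -2.39 ± 0.34). From E10.5 to E12.5 Alas2 rose by 1.29 ± 0.33, while the change of Slc25a37 was 0.06 ± 0.14 and not called. Alas2 was at 40.2, 48.4 and 31.1 CPM at E14.5, at 199, 306 and 187 CPM at E16.5, at 37.7, 26.5 and 67.5 CPM at E18.5 and at 56.8, 157 and 98.2 CPM at 4W. The library with the highest Slc25a37 was also that with the highest Alas2 at 8 of the 10 ages, the exceptions being E10.5 and E14.5. Of 10 listed erythroid markers 9 were in the table. None was at 0 in all libraries of an age, Klf1 and Hemgn were at 0 in some libraries from 1W on, and their summed level ran from 1536 to 2101 CPM at E14.5, from 5882 to 10984 at E16.5 and from 686 to 1945 at E18.5. The part of red cell precursors in the Slc25a37 values was not tested.

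Slc25a28, the widely expressed mitoferrin, moved less over the same steps. Its changes from E12.5 to E18.5 were -0.27 ± 0.12, 0.33 ± 0.12 and -0.25 ± 0.12, with the same signs as those of Slc25a37, and the middle step was the called one (adjusted p 0.049, edgeR). Slc25a28 was at 3.71, 3.75 and 3.97 CPM at E10.5, at 5.40, 6.28 and 6.43 CPM at E18.5, at 10.6, 11.2 and 8.16 CPM at P1 and at 15.1, 14.3 and 15.2 CPM at 8W. It rose over gestation by 0.67 ± 0.13 and at birth by 0.72 ± 0.12. From P1 to 8W its rise was 0.57 ± 0.12 and -0.20 with library size alone, where it was not called.

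Of the other carriers of this group, the glycine carrier Slc25a38, needed for heme synthesis, rose from 7.12, 9.19 and 5.01 CPM at P1 to 23.04, 20.8 and 20.6 CPM at 8W (1.60 ± 0.16). The glutathione carriers differed. Slc25a39 ranged from 45.3 to 104 CPM with its highest values at E16.5 and 8W, and Slc25a40 fell from 24.8, 20.8 and 21.2 CPM at E10.5 to 11.9, 12.02 and 13.4 CPM at E18.5 (-0.84 ± 0.11, adjusted p 4.8e-08, edgeR).

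Transcripts of Ucp3 and Ucp2 stepped up at birth. Ucp3, the form of skeletal muscle and heart, was at 0.174, 0.0459 and 0.0282 CPM at E18.5, within a range of 0 to 0.263 CPM in all libraries before birth. It was at 18.2, 12.3 and 12.7 CPM at P1, at 56.0, 48.2 and 42.0 CPM at 1W and at 80.2, 65.1 and 56.9 CPM at 2W. It then stood at 31.9, 36.4 and 32.7 CPM at 4W and at 39.5, 49.6 and 30.2 CPM at 8W. The change at birth, 7.53 ± 0.40 (adjusted p 2.0e-13, edgeR), was the largest of any carrier. It went on to rise from P1 to 1W (1.76 ± 0.20) and fell from 2W to 4W (-1.002 ± 0.19).

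Ucp2, its neighbour on chromosome 7, is expressed in many tissues, with high levels in immune cells. It was at 45.3, 52.0 and 48.2 CPM at E12.5 and at 21.2, 19.3 and 18.8 CPM at E18.5. It was then at 68.3, 83.3 and 92.6 CPM at P1, at 177, 144 and 229 CPM at 2W and at 67.2, 76.0 and 71.9 CPM at 8W. The change at birth was 2.04 ± 0.12 (adjusted p 1.9e-14, edgeR), and from P1 to 8W it was -0.18 ± 0.11 and not called. The 10 macrophage markers had a summed level of 116 to 140 CPM at E18.5, 151 to 201 at P1, 290 to 340 at 2W and 491 to 523 at 8W. They were highest at 4W and 8W, where Ucp2 was below its level at 2W, and their part in its rise was not tested.

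Ucp1, the heat-making form of brown fat, was at 0 counts in all libraries of E10.5, E16.5 and E18.5, where 3 counts per library would be 0.0688 to 0.105 CPM. It was at 0.0659, 0 and 1.64 CPM at P1, at 7.67, 10.1 and 9.20 CPM at 1W, at 1.63, 0 and 8.75 CPM at 2W, at 9.96, 8.02 and 0.581 CPM at 4W and at 3.79, 12.4 and 0.0798 CPM at 8W. The libraries of an age thus differed widely from 2W on. The comparison of 8W with E10.5 was called (adjusted p 6.4e-03, edgeR), and neither P1 against E18.5 (adjusted p 0.22, edgeR) nor 8W against P1 (adjusted p 0.072, edgeR) was.

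The adipocyte transcripts Adipoq and Plin1 were low in the same libraries, and Cidea was higher. Adipoq, the adipocyte hormone adiponectin, was at 0.199, 0.253 and 1.79 CPM at 2W, at 3.18, 3.55 and 1.32 CPM at 4W and at 2.96, 3.33 and 2.23 CPM at 8W. Plin1, the lipid droplet coat of adipocytes, was at 0.238, 0.0421 and 1.66 CPM at 2W, at 5.96, 5.15 and 2.75 CPM at 4W and at 3.52, 4.01 and 1.48 CPM at 8W. Over the 5 ages from P1 to 8W, the library with the highest Ucp1 was also the highest for Adipoq at 2 ages and for Plin1 at 3 ages. At 1W the library with the highest Ucp1 had the lowest Adipoq, and at 4W and 8W the library with the lowest Ucp1 was the lowest for both. All 8 listed brown adipocyte markers were in the table. Their summed level was 40.7 to 44.0 CPM at E18.5 and 79.9 to 86.8 CPM at 8W, mostly Prdm16 and Cidea, while Elovl3 had a mean of at most 0.07 CPM at any age. The part of adipose tissue in the Ucp1 values was not tested.

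**Figure D3:**
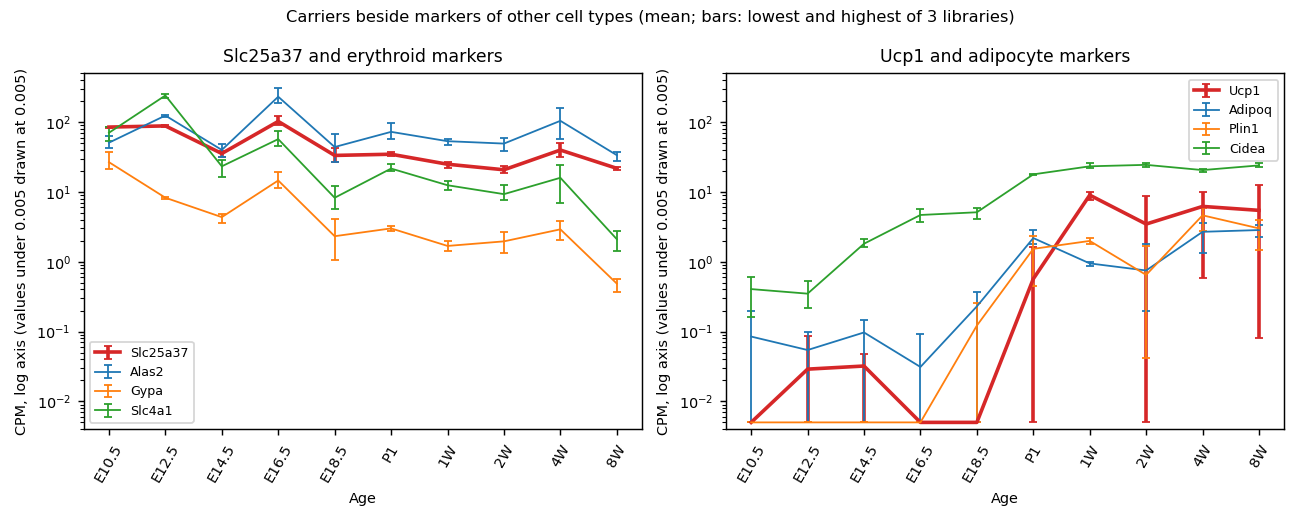
Mean CPM on a log axis (bars from the lowest to the highest of 3 libraries, values under 0.005 drawn at 0.005) of Slc25a37 with 3 erythroid markers, left, and of Ucp1 with 3 adipocyte markers, right, over the 10 ages. Slc25a37 and Alas2 peak together at E16.5, and Ucp1, Adipoq and Plin1 are near 0 before birth. Cidea is already at a mean of 5.10 CPM at E18.5.

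The nearest relatives of the uncoupling proteins peaked at P1 or declined. Slc25a27 was at 2.06, 2.39 and 3.10 CPM at E18.5, at 6.49, 6.35 and 4.14 CPM at P1 and at 1.62, 2.15 and 2.35 CPM at 8W. It rose at birth by 1.16 ± 0.25 and fell from P1 to 8W by 1.46 ± 0.26. Slc25a30 was at 9.27, 9.88 and 9.96 CPM at E18.5, at 15.5, 18.0 and 13.3 CPM at P1 and at 8.65, 8.01 and 8.97 CPM at 8W, with changes of 0.68 ± 0.12 and -0.87 ± 0.12. For both genes the P1 libraries lay above those of both other ages. The X-linked Slc25a14 fell from P1 to 8W by 0.61 ± 0.21, a call lost without 8W replicate 1 (adjusted p 0.077, edgeR).

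Of the orphan carriers, whose substrates are not settled, Slc25a34 showed the largest change over the whole span. It was at 0.581, 0.774 and 0.414 CPM at E10.5, at 3.20, 2.21 and 1.94 CPM at E16.5 and at 2.16, 2.48 and 1.44 CPM at E18.5. It was at 41.0, 47.0 and 28.8 CPM at P1, at 42.7, 48.3 and 41.6 CPM at 1W, at 105, 108 and 85.9 CPM at 2W and at 187, 240 and 185 CPM at 8W. It thus rose in steps, at E16.5, at birth and after 1W. The change was 4.25 ± 0.21 at birth (adjusted p 9.0e-14, edgeR) and 2.39 ± 0.16 from P1 to 8W (adjusted p 4.0e-12, edgeR).

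Slc25a35, the nearest relative of Slc25a34, had its called rises after 1W. It was at 1.48, 1.16 and 0.803 CPM at P1, at 1.30, 1.23 and 1.16 CPM at 1W, at 3.02, 3.33 and 3.32 CPM at 2W and at 5.18, 5.25 and 5.30 CPM at 8W (2.19 ± 0.27 from P1 to 8W). Of its exon bases 31.3% are shared with Rangrf, so part of its counts may belong to that gene. The X-linked Slc25a53 was at 5.07, 5.77 and 5.56 CPM at P1 and at 1.30, 1.66 and 1.24 CPM at 8W (-1.96 ± 0.24), the largest fall of that span among carriers of at least 5 CPM. Slc25a45 had its highest mean at P1 to 2W and at most 6.06 CPM in any library, and Slc25a47 at most 2.76 CPM.

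The balance between related carriers was compared as shares of summed counts, which do not depend on the scaling between libraries. The shares are not corrected for exon length, so the larger share need not be the higher level per kilobase. Slc25a4 made up 63.6% ± 0.73 of the counts of Slc25a4 and Slc25a5 at E10.5, 78.4% ± 0.80 at E18.5, 84.0% ± 0.68 at P1 and 93.3% ± 0.40 at 8W (SD, n = 3). It increased at every step of the means. Slc25a23 went from 8.52% ± 0.27 of the counts of Slc25a23 and Slc25a24 at E10.5 to 51.4% ± 1.57 at E18.5 and 80.6% ± 0.43 at 8W, so that the minor form of E10.5 was the major form of 8W. Slc25a12 went from 47.3% ± 1.94 of Slc25a12 and Slc25a13 at E10.5 to 70.1% ± 1.46 at P1 and back to 63.7% ± 0.66 at 8W. In CPM per kilobase at 8W, Slc25a13 (53.3, 52.1 and 50.4) was above Slc25a12 (48.2, 46.0 and 47.1). Slc25a4 and Slc25a23 were the higher of their pairs at 8W on that scale too.

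The other 3 pairs changed later or unevenly. Slc25a28 made up 4.31% ± 0.15 of the mitoferrin counts at E10.5. Its share was 6.64% ± 0.56 at E16.5, 22.3% ± 1.83 at P1 and 40.6% ± 1.41 at 8W. In CPM per kilobase at 8W, Slc25a28 (4.02, 3.82 and 4.05) was above Slc25a37 (3.43, 3.66 and 3.73). Slc25a36 made up 97.6% ± 0.55 of Slc25a36 and Slc25a33 at E10.5 and 78.6% ± 3.90 at 8W. Per kilobase at 8W, Slc25a33 (12.9, 10.1 and 10.6 CPM) was above Slc25a36 (7.32, 8.84 and 8.30). Ucp3 made up 0.401% ± 0.36 of the counts of Ucp3 and Ucp2 at E18.5, 15.3% ± 4.99 at P1 and 35.3% ± 5.17 at 8W. All 6 shares differed between the ages by a permutation test of the F ratio with 100000 resamples, each at an adjusted p of 1e-05, the smallest these resamples can give.

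**Figure D4:**
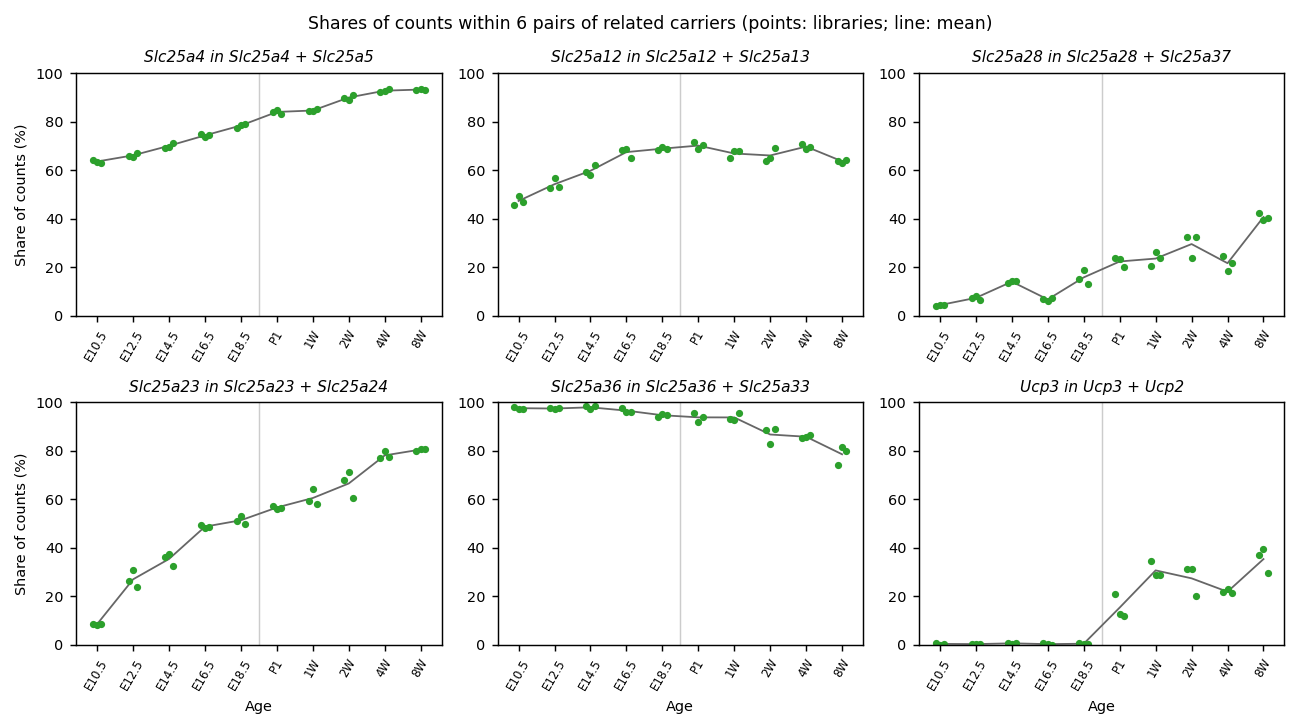
Share of the first gene in the summed counts of 6 pairs of related carriers, in percent, with each library as a point, the line through the means of 3 and a grey line at birth. The Slc25a4 and Slc25a23 shares climb from E10.5 to 8W, and the Ucp3 share leaves 0 at P1.

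The counts of called carriers are given beside the share of all tested genes called in the same direction. From E10.5 to E18.5, 16 of 47 rose, against 32.9% of all genes, and 11 fell, against 30.4%, or 27 called against 63.3%. The median change was 0.11 against -0.0013 for all genes, and with library size alone 12 rose and 14 fell. From E18.5 to P1, 19 rose, against 19.8%, and 3 fell, against 19%, or 22 called against 38.8%, with a median of 0.23 against -0.0051.

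From P1 to 8W, 24 rose, against 31.8%, and 12 fell, against 35.1%, or 36 called against 66.8%, with a median of 0.41 against -0.10. With library size alone the median of all genes moved by -0.77 and 14 carriers rose and 25 fell, and with upper quartile factors 20 rose and 17 fell. Over the whole span from E10.5 to 8W, 29 rose, against 37.8%, and 13 fell, against 42.1%, or 42 called against 79.9%. There the median was 0.94 against -0.15, and with library size alone, which moved the median of all genes by -1.04, 19 rose and 23 fell. The balance of rises and falls after birth thus turned with that scaling. Comparisons that share an age also share its libraries.

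Where single genes are said not to overlap between ages, the background is high. The 3 libraries of the later age lay all above or all below those of the earlier age for 65% of all tested genes over gestation, 50.8% at birth, 70.2% from P1 to 8W and 78.4% from E10.5 to 8W. For neighbouring ages before birth these shares were 58.3% from E10.5 to E12.5, 42.9% to E14.5, 47.1% to E16.5 and 46.2% to E18.5. After birth they were 49% from P1 to 1W, 40.2% to 2W, 37.7% to 4W and 44% to 8W.

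**Figure D5:**
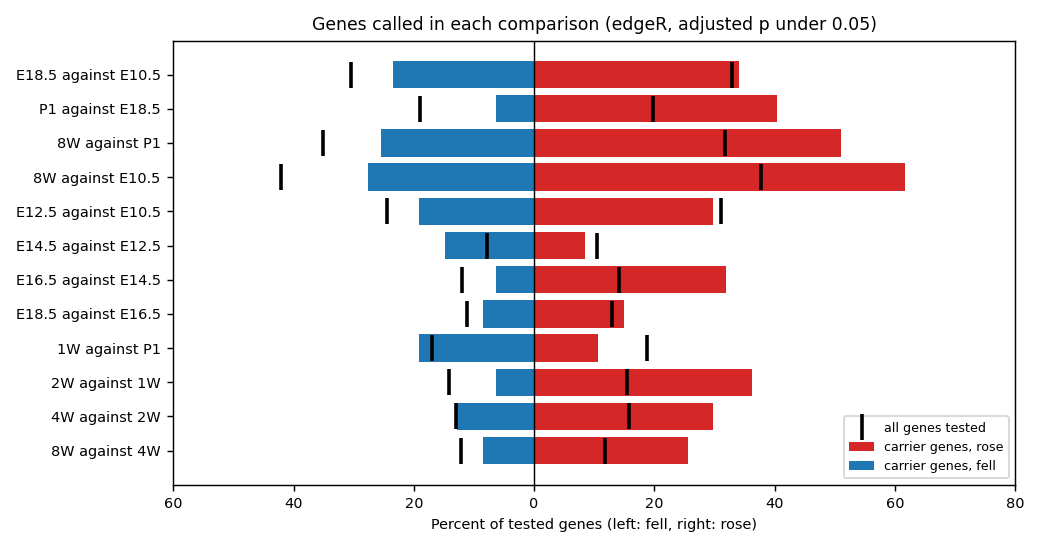
Percent of the 47 tested carriers that rose (red, right) or fell (blue, left) in each of 12 comparisons, with black marks at the percent of all 19280 tested genes. The red bars for P1 against E18.5, 2W against 1W and E16.5 against E14.5 reach well past their marks, and the bar for E18.5 against E10.5 ends close to it.

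Between neighbouring ages the count of called carriers was near the share of all genes in several steps. From E10.5 to E12.5, 23 were called against 55.4% of all genes, with 14 that rose (31%) and 9 that fell (24.4%). Slc25a23 (1.09 ± 0.10), Ucp2 (1.04 ± 0.11) and Slc25a28 (0.86 ± 0.13) led the rises, and Slc25a21 (-2.24 ± 0.52) and Slc25a2 (-1.82 ± 0.58), both low, and Slc25a46 (-1.05 ± 0.08) led the falls. With only the 6 libraries of those ages, 8 rose and 10 fell. From E12.5 to E14.5, 11 were called against 18.3%, with 4 that rose (10.5%) and 7 that fell (7.8%), among them Slc25a37 and Slc25a38 (-0.68 ± 0.16). Slc25a21 was called lower too, from 0.269, 0.543 and 0.326 CPM at E12.5 to 1 count in all at E14.5. The count of 11 was 7 without E12.5 replicate 2 and 5 without E14.5 replicate 3.

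From E14.5 to E16.5, 18 were called against 26%, with 15 that rose (14.1%) and 3 that fell (12%). Slc25a4 (0.90 ± 0.08), Slc25a11 (0.72 ± 0.11) and Slc25a3 (0.70 ± 0.08) rose there, beside Slc25a34 (2.48 ± 0.32) and Slc25a37, and with library size alone 11 rose and 8 fell. From E16.5 to E18.5, 11 were called against 24.2%, with 7 that rose (13%) and 4 that fell (11.2%). Slc25a33 (0.67 ± 0.23), Slc25a42 (0.61 ± 0.13) and Slc25a16 (0.58 ± 0.09) led the rises, and Slc25a39 (-0.62 ± 0.11) fell with Slc25a37. That split was 6 and 6 with library size alone, and 8 and 7 with only the 6 libraries.

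From P1 to 1W, 14 were called against 35.8%, with 5 that rose (18.8%) and 9 that fell (17%), and 4 and 14 with library size alone. Ucp3 and Slc25a22 led the rises, and Slc25a27 (-0.996 ± 0.24) and Slc25a30 (-0.90 ± 0.12) the falls. From 1W to 2W, 20 were called against 29.6%, with 17 that rose (15.5%) and 3 that fell (14.1%), led by Slc25a33 (1.47 ± 0.22), Slc25a35 (1.39 ± 0.26) and Slc25a34 (1.17 ± 0.16), and 7 and 12 with library size alone.

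From 2W to 4W, 20 were called against 28.9%, with 14 that rose (15.8%) and 6 that fell (13%). Slc25a29 rose most. The falls included Ucp3, Slc25a24 (-0.63 ± 0.11) and Ucp2 (-0.61 ± 0.11), and Slc25a43, which went from 0.238, 0.421 and 0.179 CPM at 2W to at most 3 counts in a library at 4W. The split was 7 and 15 with library size alone and 12 and 9 with upper quartile factors. From 4W to 8W, 16 were called against 23.9%, with 12 that rose (11.8%) and 4 that fell (12.1%), and 7 and 6 with library size alone. Slc25a33 (0.96 ± 0.20) and Slc25a34 (0.74 ± 0.16) rose most, and Slc25a37 (-0.87 ± 0.15) and Ucp2 (-0.74 ± 0.11) fell most.

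Other genes that work with the carriers were read beside them, by counts alone. The enzymes and the plasma membrane carrier of the carnitine shuttle work with Slc25a20 in the entry of fatty acids for oxidation. Of 7, 5 rose and none fell over gestation (all genes 32.9% and 30.4%), and 6 rose and none fell at birth (all genes 19.8% and 19%), with Cpt1a, the liver form of the outer carnitine palmitoyltransferase, at 2.01 ± 0.09 and Acsl1, which activates fatty acids, at 1.59 ± 0.12. From P1 to 8W, where 31.8% of all genes rose and 35.1% fell, 5 rose, led by Cpt2, the inner carnitine palmitoyltransferase, at 1.61 ± 0.08, and 2 fell, Cpt1a (-1.46 ± 0.09) and Cpt1c (-1.07 ± 0.20). The median change at birth was 1.12, against 0.23 for the carriers.

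The import machinery inserts carriers into the inner membrane, and its counts and those of the next list are read against the same shares of all genes. Of its 10 genes, 5 fell over gestation, led by Timm8a1 (-1.33 ± 0.13) and Timm8b (-0.90 ± 0.20), small chaperones of the space between the membranes, and 1 rose. At birth 1 rose and 1 fell. From P1 to 8W 4 rose, led by Timm29 (0.82 ± 0.07), a subunit of the inner membrane insertase, and none fell. The summed level of the 10 genes was 422 to 509 CPM at E10.5 and 371 to 387 CPM at 8W, while that of the carriers was higher at 8W.

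Of 25 other channels and transporters of the mitochondrial membranes, 11 rose and 7 fell over gestation (all genes 32.9% and 30.4%), 3 rose and 3 fell at birth (19.8% and 19%), and 18 rose and 4 fell from P1 to 8W (31.8% and 35.1%). The pyruvate carrier subunits Mpc1 (1.68 ± 0.16) and Mpc2 (1.48 ± 0.12) led the rises of gestation and, at 2.06 ± 0.15 and 1.80 ± 0.11, those from P1 to 8W. At birth neither passed the test (-0.06 ± 0.15 and -0.21 ± 0.11). The sideroflexin Sfxn2 fell from P1 to 8W (-1.34 ± 0.21). At birth, called rises were thus found in 19 of 47 carriers, 6 of 7 genes of the carnitine shuttle and 3 of these 25, against 19.8% of all genes. The largest among the carriers were those of Ucp3, Slc25a34, Ucp2 and Slc25a20.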

How the data were processed

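RNA was measured in 30 mouse heart libraries, 3 at each of 10 ages, after oligo-T selection of total RNA, per the labels' protocols. The tools named per the submitters' processing notes are STAR 2.5.3a and fastp 0.18.0, with the genome builds mm10 and GRCm38. How reads were counted, with which annotation and whether by strand, is not given in the sources used here. Genes that overlap on either strand are uncertain (15 of the 50 share exon bases with another gene). The authors deposited expected counts per gene, of which 6.94% were not whole (tolerance 1e-06), and all were rounded here. Library totals were 23164941 to 50519457 counts, which sets the precision of low genes. GENCODE M21 gave symbols to 48144 of 48820 genes, and the others held 0.225% of the counts.

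Members, lists, named genes and tests were chosen with earlier results of these data known. Genes were tested in edgeR 4.0.16 (R 4.3.3) with filterByExpr (19280 kept), TMM scaling, robust quasi-likelihood F tests, 1 fit of 10 group means with 20 residual degrees of freedom, and Benjamini-Hochberg adjustment over all genes at 0.05. Each SE is the size of the log2 change over the square root of its F statistic. Values in every library are given for the 4 largest called rises and falls of at least 5 CPM in the 3 main spans and for a fixed panel, and up to 3 each way are named in the other steps; some genes that this rule would name are not reported here. Levels per kilobase use merged exons. Xist counted as present from 50 CPM and Y transcripts from a sum of 10 CPM. Limits for a count of 0 use 3 counts per library and cover counting error only. Other settings tried were DESeq2 1.42.0, the replicate number as a block, fits on only the 6 libraries compared, each library left out, factors by RLE, by upper quartile or by library size alone, a filter of 1 CPM in 3 libraries or none, globin and mitochondrially encoded genes removed, and longest transcripts. The fits were also checked on simulated counts.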

Additional observations from a re-analysis of the deposited data

How the results depend on the processing

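The counts of called carriers stayed within 1.5 times their value in all comparisons and settings, with 1 exception. From E12.5 to E14.5 the count of 11 ranged from 5 to 11 when 1 library was left out, and was 7 without E12.5 replicate 2 and 5 without E14.5 replicate 3. All 6 shares within pairs kept their call and direction in the settings tried. Of the calls, 21 of 27 (E18.5 against E10.5) and 15 of 22 (P1 against E18.5) were kept under every setting and left-out library. The counts were at most 27 of 36 for 8W against P1 and at most 35 of 42 for 8W against E10.5. Between neighbouring ages, in order, they were 17 of 23, 5 of 11, 13 of 18 and 7 of 11 before birth. After birth, from 1W against P1 on, they were 10 of 14, 7 of 20, 12 of 20 and 9 of 16. A change of sign was not counted as a loss, even where the gene was then not called, so these counts are upper limits. Slc25a20 from P1 to 8W is such a case, at -0.060 with library size alone (adjusted p 0.478, edgeR). With library size alone, 31 of the 36 calls for 8W against P1 and 37 of the 42 for 8W against E10.5 were still called, in either direction.

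With library size alone the median of all genes moved by -0.77 from P1 to 8W and by -1.04 from E10.5 to 8W. There 25 gene values changed sign, counted only where the gene was called in the main fit or in this one. For 8W against P1 the log2 changes were then Slc25a15 -0.39, Slc25a16 -0.36, Slc25a20 -0.060, Slc25a23 -0.44, Slc25a25 -0.70, Slc25a28 -0.20, Slc25a32 -0.0032, Slc25a36 -0.75, Slc25a39 -0.36, Slc25a44 -0.48, Slc25a46 -0.11 and Slc25a51 -0.76. For 8W against E10.5 the log2 changes were then Slc25a15 -0.88, Slc25a25 -0.54, Slc25a32 -0.60, Slc25a39 -0.084, Slc25a44 -0.11, Slc25a45 -0.61, Slc25a46 -0.56 and Slc25a51 -0.16. For 2W against 1W the log2 changes were then Slc25a15 -0.25, Slc25a23 -0.28, Slc25a36 -0.032 and Slc25a44 -0.24. For 4W against 2W the log2 change was then Slc25a51 -0.18. With upper quartile factors Slc25a51 was at -0.19 for 8W against P1. The cause was not tested.

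Without E10.5 replicate 2, the library that stood apart by Rn7sk, 25 carriers were called from E10.5 to E18.5 and 39 from E10.5 to 8W. The replicate block gave 27, 23, 37 and 42 calls in the 4 main comparisons and 45 across the ages. The numbers did not pair the samples: the median correlation of deviations was 0.0077 for the same number and -0.0067 for others, and 19 of 30 samples correlated best with their own number, a hint from the data, not the design. With the longest transcript in place of merged exons, the share of Slc25a4 in the family's level per kilobase was 29.9% at E10.5 and 54.9% at 8W. Depth limits the 3 untested genes and Slc25a2, Slc25a18, Slc25a31 and Slc25a43, all near or under 1 CPM.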
